A study of Mus musculus with 3 samples.

Results

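The genes described here are 9 genes of calcium-binding proteins. These are the calmodulin genes Calm2 and Calm3, the neuronal calcium sensor genes Ncald, Hpca, Hpcal1, Hpcal4, Vsnl1 and Ncs1, and the calbindin gene Calb1. They were taken by symbol from the 32532 genes listed in each count table, and all 9 were found. The libraries held RNA captured on tagged ribosomes. The tissue was the transition zone of cortex and amygdala, where the ventral cortex borders the amygdala. There was 1 group, of 3 immunopurified libraries from adult, untreated control mice of the line OI82, called replicates 1, 2 and 3. In these mice Lypd1 regulatory DNA drives EGFP joined to ribosomal protein L10a, so that antibodies to EGFP pull down polysomes of the cells that use this DNA. OI82 is 1 transgenic line. Whether a library pooled animals is not stated in the labels, so p-values and SDs measure only the spread between libraries, which may be technical. No unpurified RNA of the tissue was analysed here, and the values are levels, not enrichments.

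Calcium that enters a neuron through channels and receptors acts through proteins that bind it with EF-hand loops. Calmodulin is the general sensor, and once loaded with calcium it switches on kinases, the phosphatase calcineurin, adenylyl cyclases and phosphodiesterases. Neuronal calcium sensors bind calcium more tightly than calmodulin, and several of them move to membranes when loaded, through a fatty acid at their N-terminus. Calbindin is mainly a buffer, which limits how far and how long a calcium signal spreads, and it marks particular classes of projection neurons and interneurons.

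Calm2 and Calm3 encode 1 protein with different codons. The coding sequence is 447 of 1205 bases in the chosen Calm2 transcript and 447 of 2290 in that of Calm3. Reads are given to one gene or another by sequence differences over the whole transcript, not by the codons alone. The coding sequences of Calm2 and Calm3 were 82.6% identical over 447 bases, and their translations of 149 residues did not differ. The stretch that codes for the first EF-hand loop is shown for both genes, read 5′ to 3′ on the coding strand, with capitals at the 7 of 39 bases where they are not alike.
Calm2: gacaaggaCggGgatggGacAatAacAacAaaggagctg
Calm3: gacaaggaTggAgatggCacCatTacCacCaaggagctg
These are coding bases 61 to 99, counted from the A of the start codon, in transcripts of the GENCODE M21 annotation of GRCm38. Each lies in 1 coding exon, that of Calm2 on the minus strand of chromosome 17 from 87435870 to 87435908 and that of Calm3 on the minus strand of chromosome 7 from 16917664 to 16917702. The chosen Calm2 transcript shared no window of 50 bases with a transcript of Calm3, nor the chosen Calm3 transcript with one of Calm2. Of the windows of the Calm2 transcript, 12.7% also occurred in transcripts of 3 other annotated genes, Gm7308, Gm15720 and Gm14480, none of which is listed in the count tables. For Calm3 the share was 2.77%. The read length is not known here, and how many Calm2 reads were lost as multiply aligned was not tested.

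Among the neuronal calcium sensors, Hpca, Hpcal1, Ncald, Hpcal4 and Vsnl1 form the visinin-like group, and their loops are shown to let the close relatives be compared. The stretch covers coding bases 217 to 255, the first match to the PROSITE EF-hand loop pattern in each protein, with capitals at the 14 of 39 bases where the 5 genes are not all alike.
Hpca: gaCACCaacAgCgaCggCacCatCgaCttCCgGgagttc
Hpcal1: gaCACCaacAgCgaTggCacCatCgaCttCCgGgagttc
Ncald: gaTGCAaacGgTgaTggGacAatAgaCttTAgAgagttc
Hpcal4: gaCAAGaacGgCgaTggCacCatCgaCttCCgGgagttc
Vsnl1: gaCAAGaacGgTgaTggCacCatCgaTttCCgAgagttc
The loop of Hpca lies on the minus strand of chromosome 4 from 129118487 to 129118525, that of Hpcal1 at 17786387 to 17786425 on the plus strand of chromosome 12 and that of Ncald at 37397180 to 37397218 on the minus strand of chromosome 15. The loop of Hpcal4 lies at 123189079 to 123189117 on the plus strand of chromosome 4, and that of Vsnl1 at 11332124 to 11332162 on the minus strand of chromosome 12. Over the whole protein Hpca was 93.8% identical to Hpcal1 and 88.1% to Ncald, and Hpcal4 was 89.5% identical to Vsnl1. Between these 2 sets the identity was lower, from 64.6% for Ncald and Hpcal4 to 67.7% for Ncald and Vsnl1. Ncs1 stood further off, at 58.0% to Ncald. The pattern matched 3 times in each of the 6 sensors, 4 times in calmodulin and 4 times in the 261 residues of calbindin, which was 15.7% to 18.9% identical to the others. The 3 genes of the closest set, Hpca, Hpcal1 and Ncald, differ in 81 to 120 aligned coding positions, and none of the chosen transcripts of the visinin-like genes shared a 50-base window with another gene of the 9. With other annotated genes, 11.3% of the windows of Ncald, 7.18% of those of Hpcal1 and 1.001% of those of Hpca were shared, and none of those of Hpcal4 and Vsnl1. The genes that share windows with Hpcal1 include 2410018L13Rik, which is listed in the count tables with 86, 22 and 39 counts.

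Levels are given in CPM, a gene's count scaled to a library total of 1000000 counts assigned to genes, as the mean ± SD over the 3 libraries (n = 3). The libraries held 8668527 to 24690301 assigned counts, with the least in replicate 3. The smallest count of any of the 9 genes was 233, for Hpcal1 in replicate 3, where 26.9 CPM had a 95% Poisson interval of 23.5 to 30.6 CPM that covers counting error only. All 9 genes were above 10 CPM on average and passed the minimum mean of 1 CPM set for testing. Fewer cells of a type and less RNA per cell cannot be told apart in such pooled RNA.

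Both calmodulin genes drew a large number of reads. For Calm2 the values were 1575, 2472 and 992 CPM in replicates 1, 2 and 3, a mean of 1679.5 ± 746 CPM. It ranked 19th of all listed genes by mean CPM. Calm3 measured 895, 982 and 510.4 CPM in the same order, a mean of 796 ± 251 CPM, and ranked 84th. Both were highest in replicate 2 and lowest in replicate 3, and for Calm3 replicates 1 and 2 lay close together.

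Vsnl1, the gene of visinin-like protein 1, which moves to membranes when it binds calcium, had the highest CPM of the 9 genes. It measured 2193, 2472 and 1522 CPM in replicates 1, 2 and 3, a mean of 2062 ± 488 CPM, the 15th highest of all listed genes. Hpcal4, its closest relative in sequence, measured 1074, 1462 and 922 CPM, a mean of 1153 ± 279 CPM, and ranked 35th. In both genes replicate 3 was the lowest library and the highest value was 1.62 times the lowest for Vsnl1 and 1.59 times for Hpcal4. Ncald, the gene of neurocalcin delta, measured 399, 561 and 335 CPM, a mean of 432 ± 117 CPM.

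Hpca encodes hippocalcin, a sensor best known from hippocampal pyramidal cells, where it acts in slow afterhyperpolarization and synaptic depression. Its values in replicates 1, 2 and 3 were 107, 404 and 169 CPM, a mean of 227 ± 157 CPM. Replicate 2 stood apart from the other 2 libraries, at 3.79 times replicate 1, and the mean without it was 138 CPM. Hpca was the only one of the 9 genes that was lowest in replicate 1. Its near relative Hpcal1 drew fewer reads, with 40.8, 50.8 and 26.9 CPM and a mean of 39.5 ± 12.01 CPM. Ncs1, a sensor that regulates calcium channels and phosphatidylinositol 4-kinase, had the narrowest spread of the 9, with 145, 155 and 119 CPM and a mean of 139.7 ± 18.8 CPM.

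Calb1, the gene of calbindin, measured 55.1, 104 and 38.4 CPM in replicates 1, 2 and 3, a mean of 65.7 ± 33.9 CPM. It lay at the 79.5th percentile of the 15336 tested genes, and Hpcal1 at the 68.4th, while the other 7 genes lay between the 91.3rd and the 99.9th. The highest Calb1 value, in replicate 2, was 2.70 times the lowest.

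**Figure D1:**
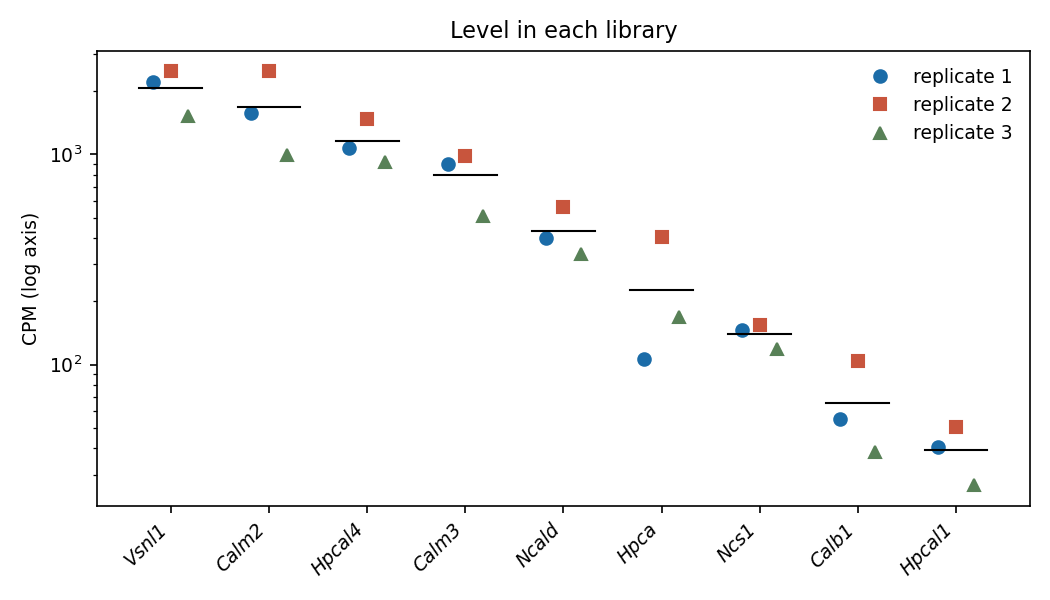
CPM of the 9 genes in each library, on a log axis, ordered by mean, with points for replicates 1 to 3 and a bar for the mean. In every gene the square of replicate 2 is the highest point, and the triangle of replicate 3 is the lowest except in Hpca.

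Levels of different genes were compared per kb of annotated exons, since longer messages give more reads. On this scale Calm2 had 1145 ± 509 and Vsnl1 1054 ± 249.7 CPM per kb. These neighbours at the top were not separated. Calm2 was the higher in replicate 2 only, and the difference of 0.05 ± 0.32 on the log2 scale was smaller than its spread. Calm3 followed at 329 ± 104 CPM per kb and Hpcal4 at 216 ± 52.2. Then came Hpca at 77.5 ± 53.7 and Ncald at 50.3 ± 13.6 CPM per kb, which were not separated either. Ncs1 had 30.0 ± 4.04, Hpcal1 23.3 ± 7.08 and Calb1 13.6 ± 6.99 CPM per kb. Mean Calm2 and Vsnl1 levels thus exceeded that of Calb1 by factors of 85.9 and 83.0, from the mean log2 differences of 6.43 ± 0.13 and 6.38 ± 0.42.

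Of the 36 pairs among the 9 genes, 34 had the same order in all 3 libraries, each with a mean log2 difference larger than its SD. The exceptions were Calm2 with Vsnl1 and Hpca with Ncald. With 3 libraries, flipping signs exactly allows 0.25 as the smallest two-sided permutation p, and each of the 34 pairs had it (adjusted p = 0.265 over 36 pairs, Benjamini-Hochberg), so no pair passed a threshold of 0.05. Between neighbours in the order the smaller differences of 1 sign were those of Calm3 and Hpcal4 (0.58 ± 0.30 on the log2 scale), Ncald and Ncs1 (0.72 ± 0.22), Ncs1 and Hpcal1 (0.41 ± 0.27) and Hpcal1 and Calb1 (0.86 ± 0.32). The order of Calm3 and Hpcal4 and that of Hpcal1 and Calb1 were the opposite in CPM, with log2 differences of −0.56 and −0.66, because Hpcal4 and Calb1 have the longer exons.

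**Figure D2:**
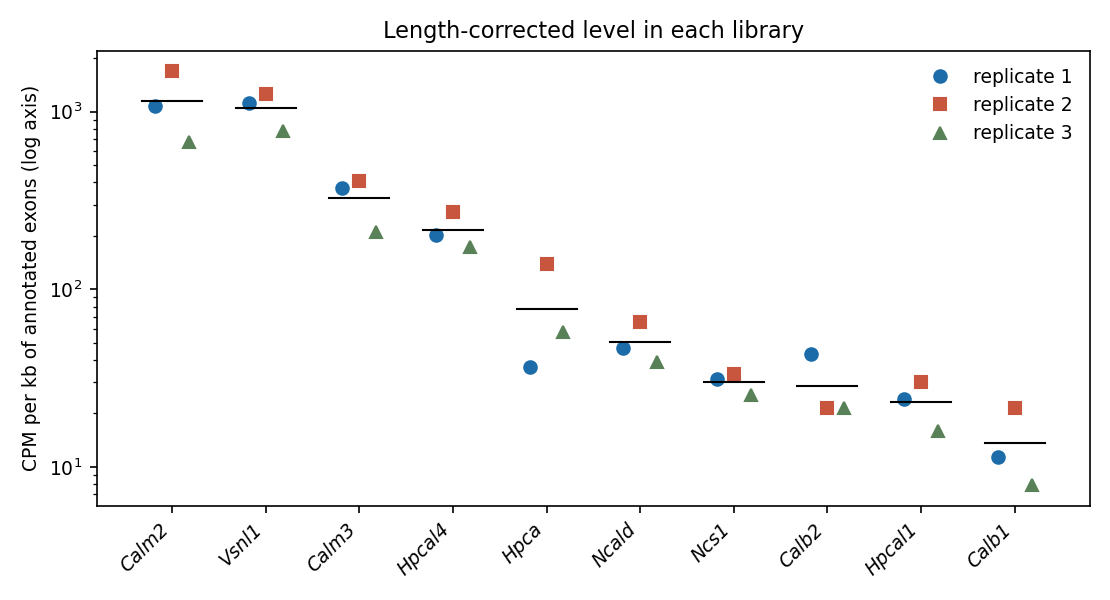
CPM per kb of annotated exons in each library, on a log axis, for the 9 genes and for Calb2, with points for replicates 1 to 3 and a bar for the mean. Calm2 and Vsnl1 overlap at the top, with means of 1145 and 1054 CPM per kb, and Calb1 has the lowest mean, 13.6.

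Of the pair Calm2 and Calm3, which encode the same protein, Calm2 had the higher level per length. Per kb, Calm2 exceeded Calm3 by 1.54, 2.06 and 1.68 on the log2 scale in replicates 1, 2 and 3, a mean of 1.76 ± 0.27 or 3.38-fold. The difference was larger than its spread and positive in 3 of 3 libraries (exact two-sided sign-flip permutation p = 0.25, adjusted p = 0.333 over 4 differences). The spread of this difference came mostly from replicate 2, where Calm2 was 4.16 times Calm3 per kb, beside 2.90 times in replicate 1 and 3.21 times in replicate 3. In CPM, with no length correction, the mean difference was 1.03 ± 0.27, since the exons of Calm2 cover 1467 bases and those of Calm3 2423.

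Within the neuronal calcium sensor family, a list of 13 genes that also holds the potassium channel partners Kcnip1 to Kcnip4 and 3 photoreceptor sensors, Vsnl1 took most of the message. Its share of the summed CPM per kb was 73.2%, 66.2% and 66.5% in replicates 1, 2 and 3, and that of Hpcal4 was 13.1%, 14.4% and 14.8%. Hpca took 2.39%, 7.25% and 4.94%, and here too replicate 2 was the highest. Ncald took 3.27 ± 0.208%, Ncs1 1.99 ± 0.222% and Hpcal1 1.498 ± 0.124%. These shares depend on the lengths, with 6.70% for Ncald by its longest transcript, and in CPM 9.85% for Ncald, 26.4% for Hpcal4, 3.25% for Ncs1, 0.894% for Hpcal1 and 47.2% for Vsnl1. Among family genes outside the 9, Kcnip3, also known as calsenilin, measured 128 ± 28.9 CPM and took 2.40 ± 0.555%. The photoreceptor sensor Guca1a had 0 counts in each library, which allows up to 0.122 to 0.346 CPM, the level of 3 counts.

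The 2 relatives Hpca and Ncald changed places between libraries. Hpca minus Ncald per kb was −0.35 in replicate 1, 1.08 in replicate 2 and 0.56 in replicate 3 on the log2 scale, a mean of 0.43 ± 0.72 (exact two-sided sign-flip permutation p = 0.5). The mean was smaller than its spread. It also depended on the gene model, since the exons of Ncald cover 8581 bases in all but 3733 in its longest transcript, and with the length of the longest transcript the difference was −0.11 ± 0.72.

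**Figure D3:**
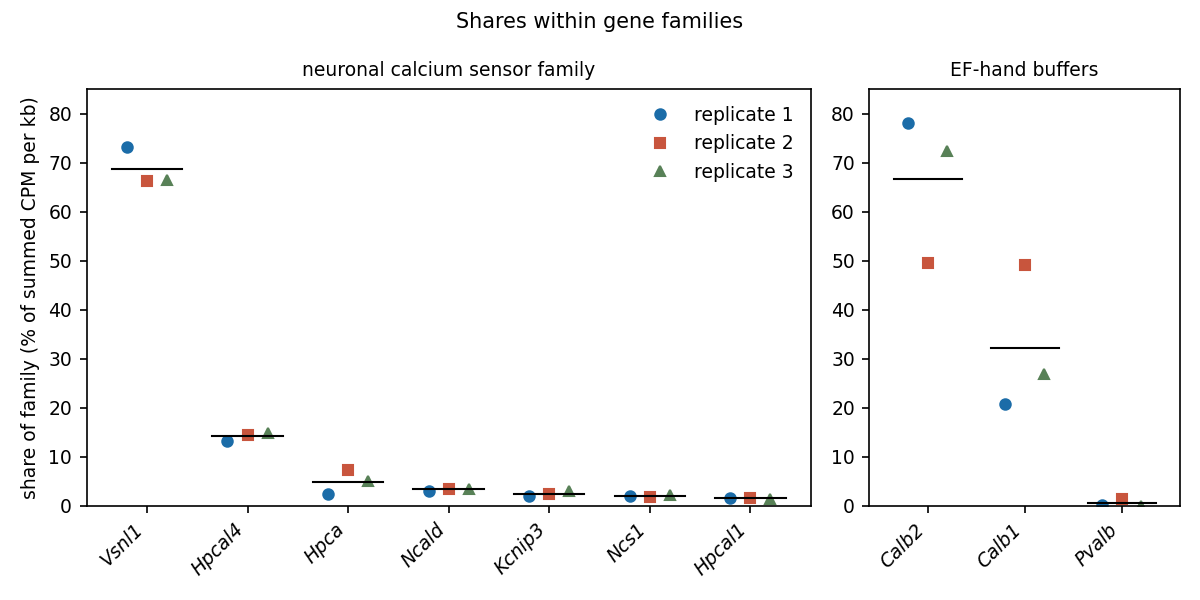
Share of the summed CPM per kb within the neuronal calcium sensor family (its 6 members of the 9 genes, and Kcnip3) and the EF-hand buffers, in percent, with points for replicates 1 to 3 and a bar for the mean. Vsnl1 stays near its mean of 68.6%, while Calb1 reaches 49.0% in replicate 2 against 20.6% in replicate 1.

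Calb1 was set against Calb2 (calretinin) and Pvalb (parvalbumin), buffers that mark other classes of interneurons. Calb2 measured 75.1, 37.6 and 37.3 CPM in replicates 1, 2 and 3, so it was highest in replicate 1, whereas Calb1 was highest in replicate 2. Calb1 minus Calb2 per kb was −1.92, −0.01 and −1.43 on the log2 scale, a mean of −1.12 ± 0.99 that was negative in 3 of 3 libraries (exact two-sided sign-flip permutation p = 0.25, adjusted p = 0.333 over 4 differences). In replicate 2 the 2 genes were at nearly the same level per kb, and in CPM, with no length correction, the mean difference was 0.35 ± 0.99. The summed level of the 10 GABAergic markers was 1139, 624 and 869.9 CPM in replicates 1, 2 and 3, highest where Calb2 was highest, and its part in the Calb2 values was not tested. In that list 9 of 10 genes reached 1 CPM in each library, led by Gad2 at 356 ± 108 CPM.

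Pvalb was close to absent from the captured RNA, with 2, 16 and 0 counts in replicates 1, 2 and 3. Per kb, Calb1 was 109.7 times Pvalb in replicate 1 (95% Clopper-Pearson counting interval 30.3 to 907), 34.3 times in replicate 2 (21.1 to 60.2) and at least 23.8-fold higher in replicate 3, taking 3 counts as the floor for 0, where the lower end of the counting interval was 19.3. The buffers S100g and Ocm had 0 counts in every library.

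All 9 genes were highest in replicate 2, and 8 of 9 were lowest in replicate 3. Of all tested genes 29.2% were highest in replicate 2 and 13.3% were both highest in replicate 2 and lowest in replicate 3. Together the 9 genes took 0.648%, 0.866% and 0.463% of the assigned counts in replicates 1, 2 and 3. The median CV of the 9 was 30.4%, from 13.4% for Ncs1 to 69.3% for Hpca. It lay below the 39.6% over all 15336 tested genes, many of them low, and above the 26.6% over the 4035 that averaged at least 50 CPM, as 8 of the 9 did. Among genes within 2-fold of its mean level, 99.1% had a lower CV than Hpca, 95.6% a lower one than Calm2 and 90.2% a lower one than Calb1, but 15.4% a lower one than Ncs1.

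In the test of variation between libraries, which asks whether a gene differs between the 3 libraries by more than genes of like level do, none of the 9 genes was called. The test was a goodness-of-fit test on an edgeR fit over 15336 genes with Benjamini-Hochberg adjustment, and it called 32 genes or 0.209% of those tested at an adjusted p under 0.05. The lowest adjusted p was that of Hpca (0.333), then those of Calb1 (0.715) and Calm2 (0.74), and the highest that of Ncs1 (0.998). At an unadjusted p under 0.05 the fit held 1 of the 9, Hpca, and 7.82% of all tested genes. With DESeq2's size factors in place of TMM scaling it also called 0 of the 9. The spread that the fit took as usual at the level of Calm2 was a biological CV of 32.3%. On simulated data the test called 44.0% of the genes raised 8-fold in 1 library. The raised genes were drawn from all tested genes, many of them low, and the rate at the levels of the 9 was not measured. Among the 9 genes the highest value was at most 3.79 times the lowest, for Hpca. A count of 0 called therefore does not show that their levels were steady.

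**Figure D4:**
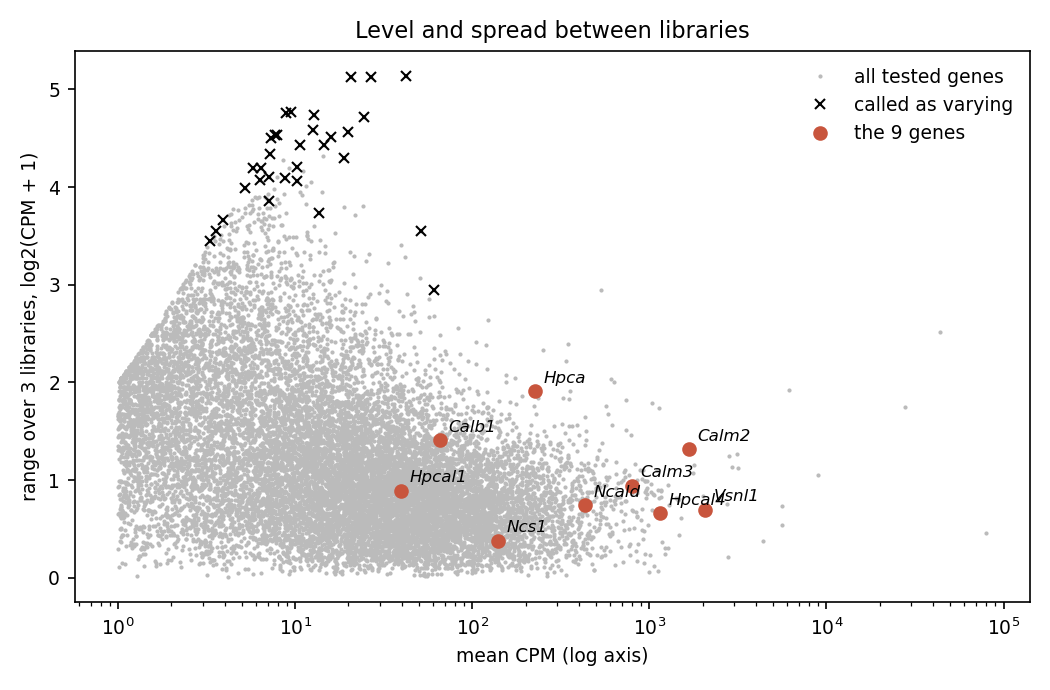
Range over the 3 libraries on the log2(CPM + 1) scale against mean CPM on a log axis, for the 15336 tested genes (grey), the 32 called as varying (crosses) and the 9 genes (circles, named). Hpca has the widest range of the 9 at 1.91 and Ncs1 the narrowest at 0.38, and none of the 9 is among the crosses.

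Several library measures moved with this order and others did not. The median of 10 pan-neuronal markers was 517, 624 and 390.3 CPM in replicates 1, 2 and 3, also highest in replicate 2 and lowest in replicate 3. Of these markers 6 were highest in replicate 2, while Map2, Syn1, Stmn2 and Nefm were highest in replicate 1. The nuclear RNA Malat1 took 3.45%, 1.44% and 8.25% of counts and Meg3 2.21%, 1.39% and 4.67%, each in the reverse order. Rn45s, a ribosomal RNA entry, took 7.99%, 9.26% and 6.73% and Rpl10a, the gene of the tagged protein, measured 122, 186 and 114 CPM, both in the order of most of the 9. Lypd1, whose regulatory DNA drives the tag, measured 232, 601 and 272 CPM, and all 8 glutamatergic markers, 6 of them highest in replicate 2, summed to 2832, 4561 and 3159 CPM. These last 2 had the library order of Hpca, lowest in replicate 1. Astrocyte markers, all 8 at 1 CPM or more in each library, summed to 2252, 1366 and 1340.0 CPM, and oligodendrocyte markers, 7 of 8, to 386, 233 and 226 CPM. Microglial markers, 4 of 8, summed to 41.1, 25.1 and 34.95 CPM, and no marker of these 3 lists was at 0 in every library. With Rn45s, Malat1 and Meg3 left out of the totals, all 9 genes were again highest in replicate 2 and 8 lowest in replicate 3. Of all tested genes 25.9% were then highest in replicate 2. The part of these library measures in the order of the 9 genes was not tested.

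Measured against the pan-neuronal median of the same library, each of the 9 genes had a lower CV than in CPM. Vsnl1 then had a CV of 4.50%, Hpcal4 7.08%, Ncald 7.82%, Hpcal1 8.68%, Ncs1 10.1% and Calm3 13.9%. The median CV of the 9 fell from 30.4% to 10.1%, whereas it was 35.1% with TMM scaling and 35.3% with DESeq2's size factors. The CV of all tested genes relative to the pan-neuronal median was not computed. Hpca, Calb1 and Calm2 kept a wider spread, with CVs of 51.5%, 29.9% and 22.7%, and each was still highest in replicate 2. On this scale 5 of 9 genes were highest in replicate 2, where 11.5% of all tested genes were. The scale moved the median gene by −0.27 in replicate 2 and 0.37 in replicate 3 on the log2 scale.

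**Figure D5:**
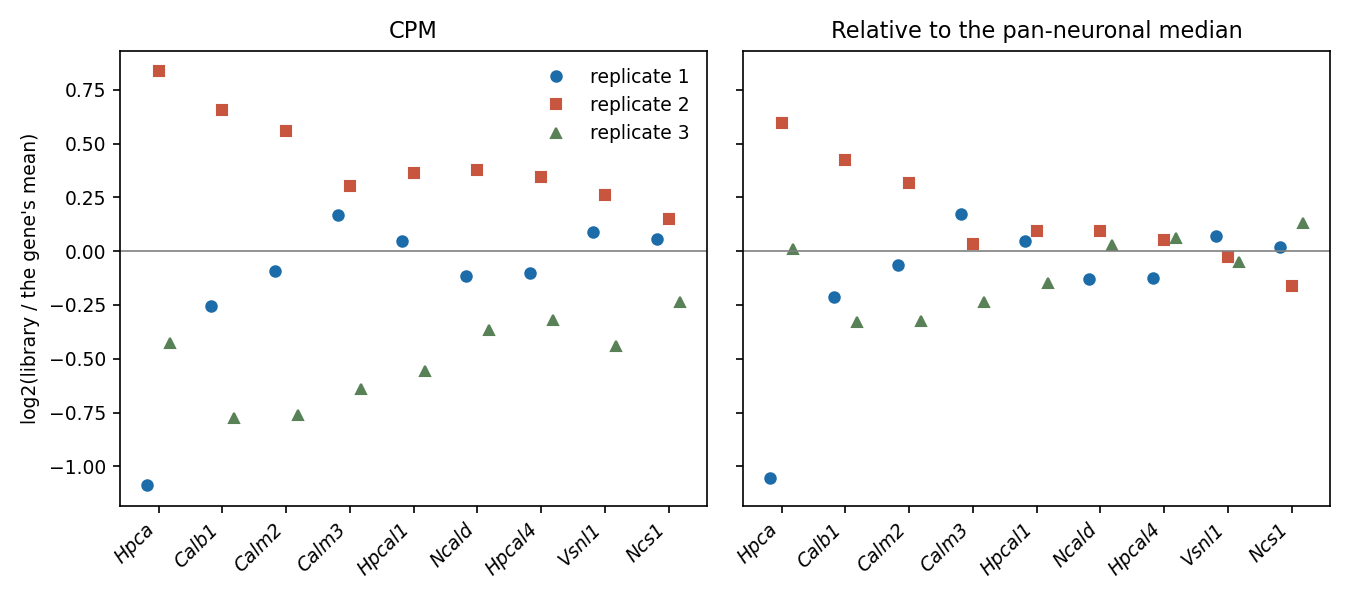
Log2 of each library's value over the gene's mean for the 9 genes, in CPM (left) and relative to the pan-neuronal median of the library (right), ordered by CV in CPM, with points for replicates 1 to 3. On the right the points of 6 genes draw together, with CVs of 4.50% to 13.9%, and those of Hpca remain apart with a CV of 51.5%.

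Hpca, Calb1 and Calm2, the 3 of the 9 with the widest log2 range, were compared with the other 4034 genes averaging at least 50 CPM for likeness over the 3 libraries, as the root-mean-square difference of centred log2(CPM + 1) values. For Hpca no gene was closer than 0.1, and the nearest were Rpl32 (0.101), Dek (0.116) and Fbxw7 (0.121). For Calb1 26 genes were closer than 0.1, led by Rragd at 0.0313, Atp5j2 at 0.0329 and Arpc5 at 0.0424. For Calm2 there were 63, led by Rit2 at 0.0235, Pfn2 at 0.0235 and Rab18 at 0.0244. With 3 libraries such likeness is a description of few values. Of 6 markers of hippocampal pyramidal and granule cells 5 reached 1 CPM in each library and 1 was highest in replicate 2, and the list summed to 281, 315 and 244 CPM in replicates 1, 2 and 3. The part of such cells in the Hpca values was not tested. The 2 markers with the highest CPM were Wfs1, at 69.0, 130.01 and 82.7 CPM, and Zbtb20, at 123, 89.9 and 60.1 CPM.

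RNA of most of the listed genes was detected. Of the 72 genes on 10 lists of calcium sensors, buffers and calmodulin partners, 53 reached 1 CPM in each library, 60 were tested and 0 were called as varying (edgeR goodness of fit, Benjamini-Hochberg), with 6 at an unadjusted p under 0.05. Over all tested genes 7.82% had such a p. Leaving out the 9, all of them highest in replicate 2, 25 of the other 51 tested list genes were highest there, and 29.2% of all tested genes were. All 12 calmodulin-dependent kinase genes reached 1 CPM in each library, led by the synaptic kinase subunits Camk2a at 2756 ± 806, Camk2b at 587 ± 135 and Camk2d at 419 ± 110.4 CPM. Of the calcineurin genes 7 of 8 did, with the catalytic subunit Ppp3ca at 834 ± 379 CPM, the regulatory subunit Ppp3r1 at 523 ± 259 CPM and the inhibitor gene Rcan2 at 113 ± 61.0 CPM. Ppp3ca (671, 1267 and 564 CPM) and Ppp3r1 (424, 816 and 328 CPM) were highest in replicate 2 and lowest in replicate 3. So were 8 of the 9 genes, Calm2 among them, and 13.3% of all tested genes. Of the 8 calcineurin genes 5 were highest in replicate 2, while Rcan2 (176, 110 and 53.8 CPM) was highest in replicate 1.

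All 8 of the other calmodulin-regulated enzymes reached 1 CPM in each library, led by the phosphodiesterase Pde1a at 447 ± 155 CPM, the adenylyl cyclase Adcy1 at 276 ± 74.9 and Pde1b at 92.7 ± 17.3 CPM. Of the small proteins that hold calmodulin back when calcium is low, Gap43 measured 366 ± 96.1, Nrgn (neurogranin) 171 ± 34.995 and Pcp4l1 78.1 ± 36.1 CPM. Their relative Pcp4 stayed under 1 CPM, with 0.108, 0.243 and 0.115 CPM. For the partners of Ncs1 the levels were measured as well, with the exchange factor Ric8b at 59.5 ± 5.82, the synaptic receptor Il1rapl1 at 29.6 ± 4.998 and the kinase Pi4kb at 16.2 ± 1.56 CPM, and their median log2 range over the libraries was 0.26, beside 0.38 for Ncs1.

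The CaBP and S100 families are other groups of calcium-binding proteins. In the CaBP family 2 of 6 genes reached 1 CPM in each library, Caln1 at 47.3 ± 21.6 and Cabp1 at 14.0 ± 8.20 CPM. Cabp4 measured 0.324, 0.081 and 5.19 CPM. In the S100 family 4 of 8 did, with S100b, an astrocyte gene, at 121, 36.1 and 24.8 CPM in replicates 1, 2 and 3, S100a16 at 13.5 ± 9.65 and S100a1 at 12.2 ± 2.63 CPM. The counts depend on the limit, since 7 of 8 S100 genes reached 0.5 CPM in each library and 1 of 6 CaBP genes reached 5 CPM. S100b, itself one of the 8 astrocyte markers, was highest in replicate 1, as was the sum of those markers. None of the 9 genes was.

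The 9 genes lie on 6 chromosomes of GRCm38. Calm2 (ENSMUSG00000036438.13) lies on the minus strand of chromosome 17, from 87433412 to 87446935, and Calm3 (ENSMUSG00000019370.10) on that of chromosome 7, from 16915379 to 16924114. Vsnl1 (ENSMUSG00000054459.8) spans 11325242 to 11436613 on the minus strand and Hpcal1 (ENSMUSG00000071379.2) 17690856 to 17791933 on the plus strand of chromosome 12. Chromosome 4 holds Calb1 (ENSMUSG00000028222.2) at 15881264 to 15908064 and Hpcal4 (ENSMUSG00000046093.9) at 123183227 to 123194701, both on the plus strand, and Hpca (ENSMUSG00000028785.13) at 129111570 to 129122036 on the minus strand. Ncald (ENSMUSG00000051359.15) lies on chromosome 15 from 37366175 to 37792570, minus strand, and Ncs1 (ENSMUSG00000062661.6) on chromosome 2 from 31245823 to 31295989, plus strand. Exons of Hpca overlap those of Tmem54, on the other strand, by 57 bases, and Tmem54 had 0, 0 and 1 counts. Exons of Ncald overlap 2 non-coding genes, Gm28221 by 347 and Gm49397 by 286 bases, neither of which is listed in the tables. For the other 7 genes no overlap with exons of another annotated gene was found.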

How the data were processed

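Libraries of ribosome-bound RNA, immunopurified with anti-EGFP antibodies, were sequenced. The authors deposited raw counts, 1 whole number for each gene and library. STAR 2.0.0e, HTSeq and mm10 are named by the submitters' processing notes. Annotation, strand setting, kit and read length are not given in the sources used here. The 5 summary classes at the end of each deposited count file were left out of totals and held 51.9% to 65.5% of its entries, and the class of reads with no unique alignment held 16.5% to 32.7%.

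CPM was computed on all counts assigned to genes. Exon lengths came from GENCODE M21, as the union of all exons of a symbol, and were found for 88.8% of tested genes. Within-library log2 differences were tested by exact permutation of their signs, two-sided. Counts under 3 were set to 3 in these differences, a step added because Pvalb had so few. The test of variation used edgeR 4.0.16 under R 4.3.3 (TMM, intercept-only fit, trended dispersion, goodness of fit on 2 degrees of freedom, Benjamini-Hochberg). DESeq2 1.42.0 gave alternative size factors. On simulated data of 15336 genes, the edgeR test called 44.0% of the genes planted with an 8-fold rise in 1 library. It called 93.3% of those with a 64-fold rise, and 9.40% of its calls were false. Translations, identities and shared 50-base windows were computed with Python 3.11.15 and Biopython 1.88.

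The members and gene lists were chosen with earlier results of these data known. Named genes are the 9 members, the 3 highest genes of each pathway list, the 3 genes most like each of the 3 widest-ranging members and the 2 highest of marker lists; not all are printed, and others, such as Kcnip3, Pcp4, Guca1a, S100g, Ocm and Pvalb, were named after their values were seen. Of 73 list entries 72 were matched. A planned set of shares within a gene family is not reported here. Alternatives were other scalings, filters, dispersions, lengths, pseudocounts and detection limits, and leaving out each replicate.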

Additional observations from a re-analysis of the deposited data

How the results depend on the processing

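The number of genes called as varying, 32, was 20 when only genes averaging at least 10 CPM were tested, 780 with a common dispersion and 5 to 22 with 1 library left out, and it stayed within 1.5 times under the other alternatives. The count of the 9 genes called was 0 under each of 8 alternatives. The test called only 44.0% of simulated 8-fold rises in genes of all tested levels. Under each of 6 alternatives 34 to 35 of 36 pairs had 1 order in all libraries, but not always the same pairs or orders. In CPM, Calm3 minus Hpcal4 turned from 0.58 to −0.56 and Hpcal1 minus Calb1 from 0.86 to −0.66, Hpca minus Ncs1 lost its single order (0.48 ± 0.91) and Hpca minus Ncald gained one. Hpca minus Ncald reversed from 0.43 to −0.11 with the longest transcript as length and to −1.12 in CPM, and Calb1 minus Calb2 from −1.12 to 0.35 in CPM. With 1 library left out the first was 0.11 (without replicate 2) to 0.82 (without replicate 1) and the second −1.68 (without replicate 2) to −0.72 (without replicate 1). The turns in sign of the pairs named so far came with a change of the lengths used. Calm2 minus Calm3 stayed positive, at 1.61 to 1.87 with 1 library left out and 1.03 in CPM. Calm2 minus Vsnl1 was −0.13 without replicate 2, where the lengths were unchanged, and −0.37 ± 0.32 in CPM, in place of 0.05. With the longest transcript as length this difference was 0.29 ± 0.32 and positive in 3 of 3 libraries. Of 63 alternative levels of the 9 genes, 1 moved by more than 1 SD, that of Ncs1 to 164 CPM with totals without Rn45s, Malat1 and Meg3, and that of Hpca fell to 138 CPM without replicate 2, a change within its wide SD. Of 35 alternative family shares 8 moved by more, 6 of them in CPM. In CPM the share of Calb1 in the buffers was 55.2 ± 16.03%, and with the longest transcript that of Vsnl1 in its family was 63.0%. No paired analysis was possible because there was 1 group. With 3 libraries no sign-flip test can pass a threshold of 0.05, and replicate 3 has the least depth.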
